A study of Mus musculus with 8 samples.

Results

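The 10 genes described here encode the enzymes that make serine and glycine, the transcription factor ATF4 and a set of its known target genes: Atf4, Phgdh, Psat1, Psph, Shmt2, Asns, Slc7a11, Ddit3, Trib3 and Chac1. They are 10 of 16593 gene symbols with a probe on the array, and every probe that carries one of these symbols was taken, 14 of 25697 probes. A probe was tested when its signal passed a detection floor on at least 2 of 8 arrays, which 13 of the 14 probes, covering 9 of the 10 genes, did. The gene without a tested probe was Psph. The study measured total RNA from primary limb bud cells of mouse embryos at embryonic day 11.5, taken from forelimb and hindlimb buds and cultured for 6 h before treatment. All cells carried the strain name 129XB6-Sox4fl/fl11fl/fl, so that the floxed alleles were present in the controls too. The cells were left untreated (n = 2 arrays), or received for 24 h an adenovirus that expresses LacZ (AdeLacZ in the labels, AdLacZ here, n = 3) or Cre recombinase (AdeCre, AdCre here, n = 3). The design text gives the inactivation of floxed SoxC genes by Cre as the treatment under study. The labels call the untreated cells wild type, the AdLacZ cells control and the AdCre cells mutant. They give no time in culture for the untreated cells, name no AdCre treatment of cells without floxed alleles, and do not say whether replicates were separate cultures or litters, and the tests therefore speak only of variation among these arrays.

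ATF4 is a transcription factor whose protein level is set largely at translation: when kinases of the integrated stress response phosphorylate the initiation factor eIF2, most translation slows while that of Atf4 mRNA increases. ATF4 then raises the transcription of genes for amino acid synthesis and import, through sites at which it binds as a dimer with C/EBP proteins. Serine is made from a glycolytic intermediate by Phgdh, Psat1 and Psph, and Shmt2 passes its side-chain carbon to folate in mitochondria, giving glycine and carbon units for purine and thymidylate synthesis in dividing cells. mRNA levels do not report the level of ATF4 protein.

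The array values were deposited as background-subtracted intensities on a linear scale. The 8 arrays shared nearly the same value distribution, with medians from 14.6 to 14.7 intensity units, and correlated with one another at Pearson r from 0.979 to 0.994. On each array 14358 to 14385 probes passed the floor, which lay between 8.87 and 8.93 units. Of 11 measured limb mesenchyme genes, 10 were above the floor on all 8 arrays, a check of the labelled tissue. The Sox4 probe read 66.5 to 78.1 units with AdLacZ and 10.9 to 12.9 with AdCre (log2 change -1.31, limma adjusted p = 0.00114), and was above the floor on every array. Tead2, also read as a check of the labels, gave 2330 to 2782 units with AdLacZ and 898 to 945 with AdCre. Untreated replicate 2 stood apart from untreated replicate 1 in interferon response genes: Usp18, an interferon-induced protease, read 27.8 units in replicate 1 and 465.8 in replicate 2. Summed intensities of 5 erythroid genes ran from 6089 to 7216 units in untreated, 4165 to 4732 in AdLacZ and 1309 to 1883 in AdCre cells, those of 8 macrophage genes from 896 to 1346, 280 to 321 and 251 to 272, and those of 11 DNA replication genes from 10991 to 11047, 11659 to 12487 and 9150 to 9534. Other lists had their highest sums in AdCre cells. The 9 skeletal muscle genes summed to 20719 to 22543, 22914 to 25724 and 27884 to 29602 units. The 7 surface ectoderm genes summed to 877 to 952, 922 to 1119 and 1308 to 1469. In AdCre against AdLacZ 2 of 7 tested muscle and 1 of 6 ectoderm genes were higher and none lower (limma, adjusted p under 0.05). Among all genes 1.82% were higher and 2.78% lower. Myog did not follow the muscle sum, at 347.8 and 351.1 units, then 427.9, 505.0 and 373.0, then 402.4, 356.1 and 364.7. The 5 neuronal and neural crest genes were highest in AdLacZ cells, at 344 to 382, 481 to 522 and 310 to 355 units. The 8 endothelial genes ran from 407 to 421, 358 to 369 and 358 to 370, with 2 above the floor on all arrays. Most of that sum was Egfl7, at 212.3 to 237.6 units with AdLacZ and 266.7 to 267.3 with AdCre. Tek ran from 116.8 to 136.7 units in untreated cells, 48.8 to 81.0 with AdLacZ and 39.0 to 60.1 with AdCre. Of 5 tested endothelial genes 1 was lower and none higher in AdCre than AdLacZ (limma, adjusted p under 0.05), beside 2.78% of all genes lower. Ptprc (macrophage), Alas2 (erythroid), Cdh5 (endothelial), Pax3 (muscle) and Krt5 (ectoderm) stayed under the floor on all arrays. In bulk RNA, fewer cells of a type and less RNA per cell cannot be told apart, and the part of these shifts in the results that follow was not tested.

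The promoter stretches of 5 of the genes are printed because they include the 3 member genes lower in AdCre than in untreated cells (Phgdh, Atf4 and Slc7a11, of which Phgdh was also lower than with AdLacZ) and, beside them, Asns and Chac1, whose windows hold a motif of the kind that ATF4 and C/EBP dimers bind but whose signal passed no test. The sequences are from RefSeq on GRCm38.p6, 120 bases each, 5′ to 3′ on the gene's own strand. Those of Phgdh, Atf4, Slc7a11 and Asns run from position -120 to -1 before the annotated start, and that of Chac1 starts at -250. The start used for Slc7a11 is not the start of its gene record, unlike those of the other genes printed, and its positions depend on it. Capitals mark matches to TGATGNAA or to its reverse complement TTNCATCA.
Phgdh, chr3:98339970-98340089 (minus strand): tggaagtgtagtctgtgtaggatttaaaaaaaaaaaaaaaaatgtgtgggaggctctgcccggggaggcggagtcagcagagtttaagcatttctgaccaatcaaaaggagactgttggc
Atf4, chr15:80255064-80255183 (plus strand): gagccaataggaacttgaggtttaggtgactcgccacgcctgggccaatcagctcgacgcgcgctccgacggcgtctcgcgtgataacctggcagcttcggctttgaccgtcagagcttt
Slc7a11, chr3:50443614-50443733 (minus strand): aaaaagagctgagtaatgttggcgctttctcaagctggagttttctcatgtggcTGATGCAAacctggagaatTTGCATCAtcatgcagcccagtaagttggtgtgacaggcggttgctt
Asns, chr6:7693210-7693329 (minus strand): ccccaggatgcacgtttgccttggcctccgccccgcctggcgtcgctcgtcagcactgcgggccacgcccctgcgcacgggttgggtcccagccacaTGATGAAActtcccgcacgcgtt
Chac1, chr2:119350992-119351111 (plus strand): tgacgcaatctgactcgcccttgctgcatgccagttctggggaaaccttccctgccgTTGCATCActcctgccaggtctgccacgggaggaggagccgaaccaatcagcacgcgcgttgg

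All 10 genes were matched to promoter windows of 300 bases, from 250 before to 50 after the annotated start, with 11 windows because Psat1 has several. The motif was present in the windows of 4 genes. Slc7a11 holds it in both orientations, as TGATGCAA at -66 to -59 and TTGCATCA at -47 to -40. Asns holds TGATGAAA at -23 to -16, Chac1 holds TTGCATCA at -193 to -186, and Trib3 holds TTACATCA at +15 to +22, after the start. A match was found for 4.51% of all 27025 genes with a window and in 3.97% of all 32851 windows. The windows of Phgdh, Atf4, Psat1, Psph, Shmt2 and Ddit3 had no match to these letters. A match of 8 letters describes the sequence and does not show binding.

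Phgdh, phosphoglycerate dehydrogenase, catalyses the entry step of serine synthesis, and it was the member whose signal fell when AdCre was compared with AdLacZ. Its probe ILMN_2790181 read 568.1 and 545.7 units in untreated cells, 531.4, 658.5 and 550.4 with AdLacZ, and 426.9, 368.8 and 373.2 with AdCre. All 3 AdCre arrays lay under all 5 other arrays, while the untreated values lay inside the AdLacZ range. On the log2 scale the means were 9.20 ± 0.04 (SD, n = 2), 9.25 ± 0.16 (n = 3) and 8.71 ± 0.11 (n = 3). The change between AdCre and AdLacZ was -0.54 ± 0.11 (SE), or 1.45-fold lower, with a 95% interval from -0.78 to -0.29 (limma, Benjamini-Hochberg adjusted p = 0.0224). Against untreated cells AdCre was lower by a log2 change of -0.49 ± 0.12 (limma adjusted p = 0.0255), a comparison that shares its AdCre arrays with the one before. AdLacZ and untreated cells differed by 0.05 (95% interval -0.22 to 0.32, limma adjusted p = 0.862). The AdLacZ mean owed part of its height to replicate 2: without that array the change between AdCre and AdLacZ was -0.45 with a limma adjusted p of 0.0857. It also missed the threshold of 0.05 without AdLacZ replicate 3 (adjusted p = 0.0602), AdCre replicate 2 (0.08) or AdCre replicate 3 (0.066), each in limma. Against untreated cells the adjusted p was 0.138 without untreated replicate 1, 0.0739 without untreated replicate 2, 0.0775 without AdCre replicate 2 and 0.0606 without AdCre replicate 3.

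Psat1, the aminotransferase of the next step, did not follow Phgdh. It read 3056.2 and 2769.4 units in untreated cells, 2535.7, 2505.9 and 2518.6 with AdLacZ, and 2453.4, 2621.7 and 2691.4 with AdCre. The AdLacZ arrays lay within the AdCre range and both virus groups lay under the untreated arrays. The log2 change was 0.04 between AdCre and AdLacZ (95% interval -0.17 to 0.24, limma adjusted p = 0.857), -0.20 between AdLacZ and untreated (adjusted p = 0.292) and -0.17 between AdCre and untreated (adjusted p = 0.327). The interval against AdLacZ does not reach the -0.54 measured for Phgdh, although the difference between the genes was not tested. Psph, the phosphatase of the last step, gave no measured level: its probe ranged from -10.8 to -3.0 units over the 8 arrays, under the floor on each.

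The probes of Shmt2, the mitochondrial serine hydroxymethyltransferase, disagreed. The brighter probe, ILMN_1224942, read 211.0 and 227.3 units in untreated cells, 201.2, 213.6 and 201.0 with AdLacZ, and 210.0, 204.6 and 195.3 with AdCre. Its groups overlapped between the viruses, with a log2 change of -0.01 (95% interval -0.21 to 0.19, limma adjusted p = 0.958), and AdCre and untreated differed by -0.09 (adjusted p = 0.593). The dimmer probe, ILMN_2702703, read 98.6 and 96.0 units in untreated cells, 54.6, 98.8 and 109.2 with AdLacZ, and 53.7, 31.5 and 44.7 with AdCre. AdLacZ replicate 1 lay close to the highest AdCre array and apart from the other AdLacZ arrays. The dimmer probe fell between untreated and AdCre by a log2 change of -0.81 ± 0.20 (95% interval -1.26 to -0.36, limma adjusted p = 0.0242), and the change from AdLacZ to AdCre was -0.66 ± 0.18 with an adjusted p of 0.0625. Without AdLacZ replicate 1 that value was -0.88, with an adjusted p of 0.0174. Without either untreated array the fall against untreated missed the threshold (adjusted p = 0.136 without replicate 1, 0.0899 without replicate 2), as it did without AdCre replicate 2 (0.0725). The transcripts that each Shmt2 probe detects are not given in the sources used here. Because the gene was counted by its brighter probe, Shmt2 is not among the member genes called.

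**Figure D1:**
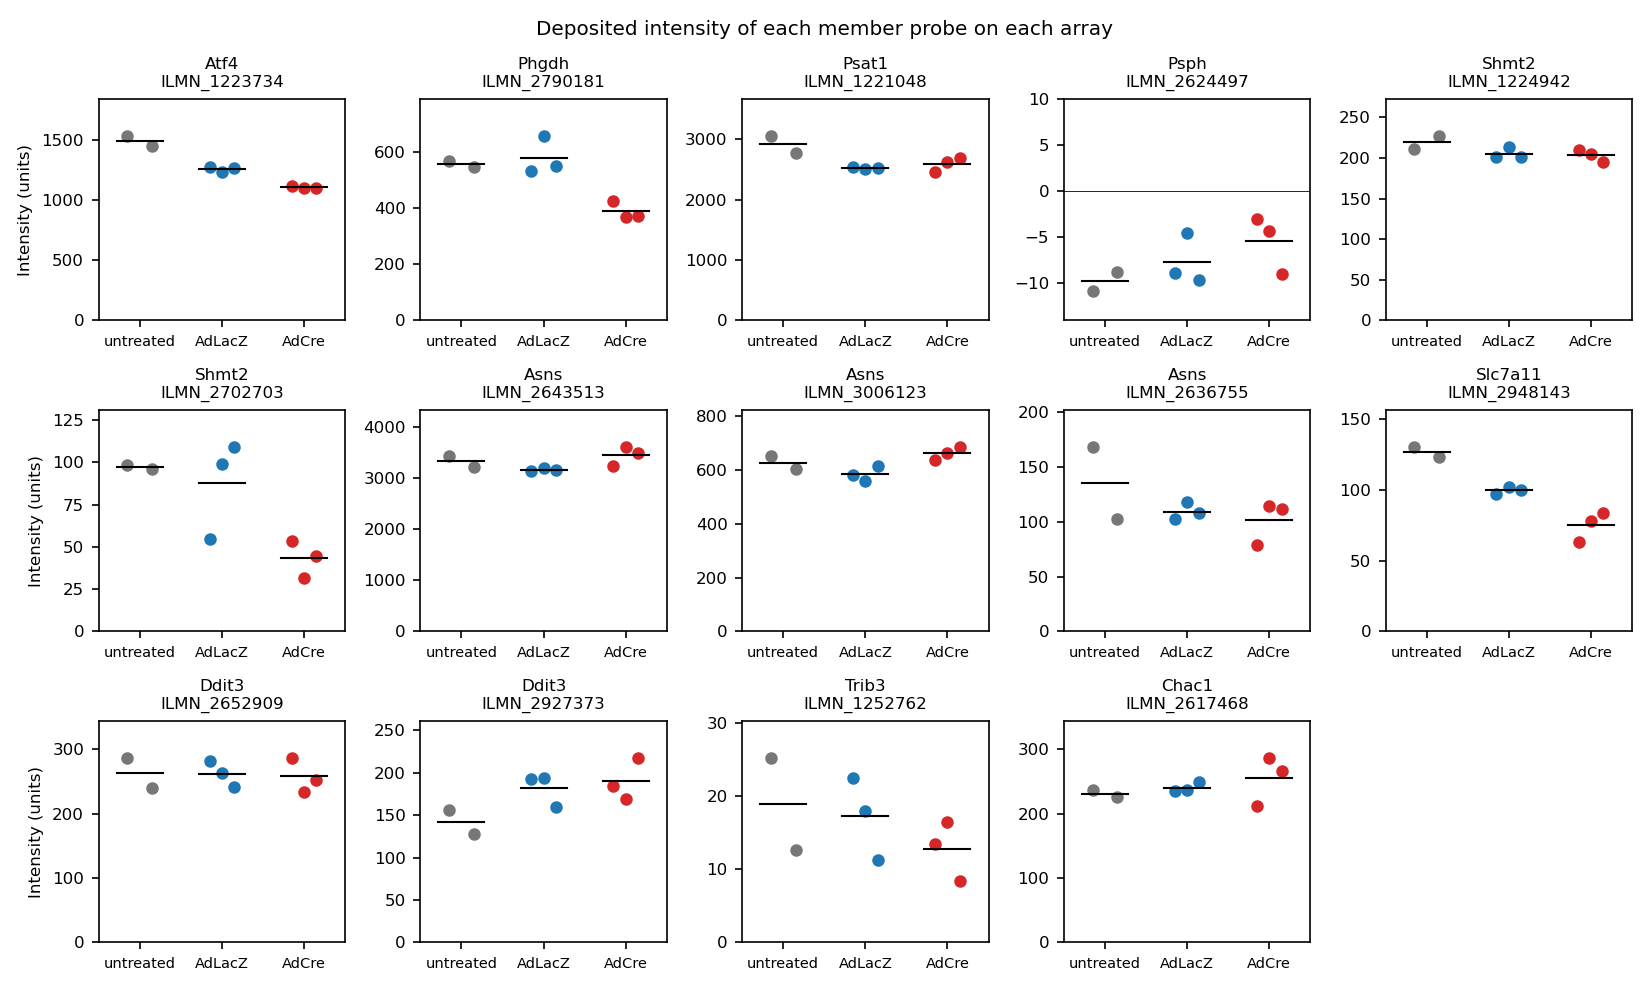
Deposited background-subtracted intensity (units, linear axis) of each of the 14 member probes; points are arrays, bars the group means (untreated n = 2, AdLacZ n = 3, AdCre n = 3). Phgdh is lower on the 3 AdCre arrays than on the other 5, Atf4 and Slc7a11 step down from untreated to AdLacZ to AdCre, and Psph lies under 0 on every array.

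Atf4 transcript was highest in untreated and lowest in AdCre cells. Its probe ILMN_1223734 read 1534.7 and 1452.7 units in untreated cells, 1271.4, 1232.5 and 1264.7 with AdLacZ, and 1119.2, 1100.2 and 1102.4 with AdCre. The 3 groups did not overlap, and the arrays of each virus group lay close together. On the log2 scale the means were 10.57 ± 0.06 (SD, n = 2), 10.33 ± 0.02 (n = 3) and 10.15 ± 0.01 (n = 3). Only the ends of this order differed by the test: AdCre against untreated was -0.42 ± 0.10 (SE), 1.34-fold lower (95% interval -0.64 to -0.21, limma adjusted p = 0.0174). The neighbours in the order did not pass, with -0.24 ± 0.10 for AdLacZ against untreated (limma adjusted p = 0.182) and -0.18 ± 0.09 for AdCre against AdLacZ (adjusted p = 0.27). Without untreated replicate 1 the call against untreated was lost (-0.38, limma adjusted p = 0.108), and without AdCre replicate 2 the adjusted p was 0.0533. Without untreated replicate 2, the array that stood apart in interferon genes, it was 0.0427. With the replicate number as a block the adjusted p was 0.0582.

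Slc7a11, which encodes the subunit of the cystine and glutamate exchanger xCT that carries the transport, showed the same order of groups. It read 130.4 and 123.4 units in untreated cells, 96.8, 102.3 and 99.7 with AdLacZ, and 63.5, 78.0 and 83.6 with AdCre, with no overlap between groups. AdCre was below untreated by a log2 change of -0.58 ± 0.11 (SE), 1.5-fold lower (95% interval -0.84 to -0.33, limma adjusted p = 0.00788). Of the members it was the one with the lowest p in that comparison. AdLacZ against untreated was -0.28 ± 0.11 (limma adjusted p = 0.193) and AdCre against AdLacZ -0.31 ± 0.10 (95% interval -0.53 to -0.08, adjusted p = 0.11), so neither step alone passed. Without untreated replicate 1 the change against untreated was -0.55 (limma adjusted p = 0.0663), and without untreated replicate 2 it was -0.62 (adjusted p = 0.03).

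Asns, asparagine synthetase, is a standard target of ATF4, but its signal passed no test in any comparison. Probe ILMN_2643513 read 3437.3 and 3208.1 units in untreated cells, 3142.5, 3186.4 and 3155.2 with AdLacZ, and 3227.1, 3608.7 and 3487.1 with AdCre. Probe ILMN_3006123 read 651.8 and 602.1 units, then 581.6, 557.4 and 613.4, then 637.3, 661.7 and 686.0. For both probes every AdCre array was above every AdLacZ array. The log2 changes were 0.12 (95% interval -0.08 to 0.32, limma adjusted p = 0.495) and 0.17 (-0.03 to 0.38, adjusted p = 0.316). The dimmest probe, ILMN_2636755, pointed the other way, with -0.09 between AdCre and AdLacZ (limma adjusted p = 0.788), and its untreated arrays, at 168.3 and 102.9 units, lay further apart than the arrays of either virus group.

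The stress-induced members Ddit3, Trib3 and Chac1 likewise passed no test. Ddit3 encodes CHOP, a transcription factor of prolonged stress. Its brighter probe, ILMN_2652909, read 286.5 and 240.1 units in untreated cells, 282.0, 262.5 and 241.9 with AdLacZ, and 286.5, 234.0 and 252.3 with AdCre, and its log2 changes lay between -0.03 and 0.00 in the 3 comparisons. The other Ddit3 probe, ILMN_2927373, read 156.5 and 127.9 units in untreated cells, 193.0, 193.4 and 159.8 with AdLacZ, and 184.9, 168.9 and 217.6 with AdCre. Here both virus groups lay above the untreated arrays, with log2 changes of 0.30 ± 0.14 for AdLacZ (limma adjusted p = 0.238) and 0.36 ± 0.14 for AdCre (adjusted p = 0.111). Chac1, which breaks down glutathione, read 235.9 and 225.5 units in untreated cells, 235.1, 235.8 and 248.2 with AdLacZ, and 211.1, 286.4 and 265.5 with AdCre. Its AdCre arrays were spread more widely than the others, and the change against AdLacZ was 0.07 (95% interval -0.18 to 0.32, limma adjusted p = 0.78). Trib3, a pseudokinase that ATF4 and CHOP induce, was close to the floor, at 25.2 and 12.6 units in untreated cells, 22.5, 18.0 and 11.2 with AdLacZ, and 13.5, 16.4 and 8.4 with AdCre. AdCre replicate 3 did not pass the floor, and the change against AdLacZ was -0.14 (95% interval -0.44 to 0.16, limma adjusted p = 0.594), a signal range in which the offset used here shrinks fold changes.

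**Figure D2:**
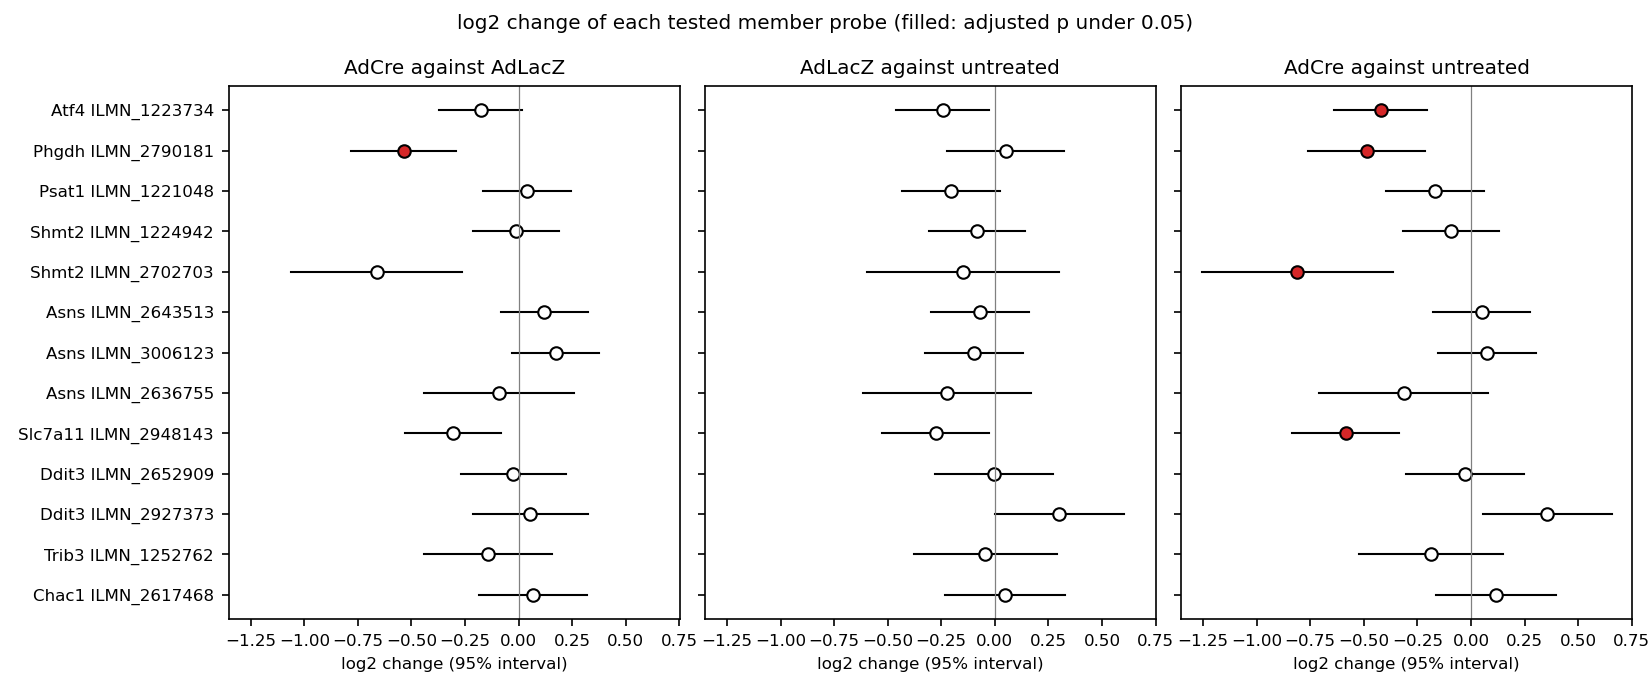
Log2 change of each of the 13 tested member probes in the 3 comparisons, with 95% intervals from limma on a linear log2 axis; filled points have an adjusted p under 0.05. Phgdh is the filled point in AdCre against AdLacZ, none is filled in AdLacZ against untreated, and Atf4, Phgdh, Slc7a11 and the dimmer Shmt2 probe are filled in AdCre against untreated.

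Counted by the brightest tested probe of each gene, 1 of 9 member genes was lower in AdCre than in AdLacZ cells and none was higher, where 2.78% of all 10772 tested genes were lower and 1.82% higher (limma, adjusted p under 0.05). Over probes, 1 of 13 member probes was lower, beside 3.44% of all 15944 tested probes, and 4.6% of all genes passed in either direction. In AdLacZ against untreated cells 0 of 9 genes and 0 of 13 probes passed in limma. Among all tested genes 2.58% were lower and 2.94% higher, 5.52% together, and 2.5% of all tested probes were lower. An unadjusted p under 0.05 was found for 3 of the 13 member probes, beside 3316 of all 15944 tested probes. In AdCre against untreated cells 3 of 9 genes (Slc7a11, Atf4 and Phgdh) and 4 of 13 probes were lower and none was higher, where 6.06% of genes and 7.08% of probes were lower and 7.4% of genes higher. The share of members lower in that comparison is above the share of all genes, but 9 genes picked with earlier results of these data known do not allow a test of that difference. The median log2 change of the 9 genes was -0.02 in AdCre against AdLacZ, -0.07 in AdLacZ against untreated and -0.17 in AdCre against untreated, beside 0.02, 0.00 and 0.02 for the brightest probes of all genes. Groups did not overlap for 6 of 13 member probes in AdCre against AdLacZ, 5 in AdLacZ against untreated and 7 in AdCre against untreated, where 28.4%, 38.4% and 43.3% of all tested probes did not overlap. The 3 comparisons share arrays in pairs, so their counts are not independent.

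Related genes were read from 4 lists that held none of the 10 members. Of the serine, glycine and one-carbon enzymes and transporters 12 of 19 were tested, and of the regulators of the ATF4 pathway 14 of 16. Of the ATF4 targets, in amino acid transport and synthesis but also in other functions, 16 of 20 were tested. The cytosolic aminoacyl-tRNA synthetases had 19 of 20 tested. In AdCre against AdLacZ, 1 of the 12 one-carbon genes was lower and none was higher, beside 2.78% of all genes lower and 1.82% higher. It was Gldc, the glycine decarboxylase of mitochondria, whose brighter probe read 187.9, 192.3 and 164.8 units with AdLacZ and 125.3, 141.9 and 121.0 with AdCre (log2 change -0.41 ± 0.10, limma adjusted p = 0.0453). Its dimmer probe was lower too (-0.48, adjusted p = 0.0483), but the brighter one passed in none of the 8 fits that left out an array, with adjusted p from 0.053 to 0.147. Shmt1, the cytosolic counterpart of Shmt2, gave -0.36 (limma adjusted p = 0.0893), and Mthfd2, a mitochondrial folate enzyme and ATF4 target, gave -0.14 (adjusted p = 0.49).

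Of the 16 tested ATF4 targets 1 was higher and 1 lower with AdCre against AdLacZ, where 1.82% of all genes were higher and 2.78% lower. Slc3a2, the heavy chain that brings Slc7a11 and other transporters to the cell surface, read 37.0, 55.6 and 41.6 units with AdLacZ and 80.7, 76.1 and 121.4 with AdCre, every AdCre array above every other array (log2 change 0.71 ± 0.16, limma adjusted p = 0.0301). Slc3a2 thus changed in the direction opposite to Phgdh. Slc38a2, the SNAT2 transporter of neutral amino acids, read 1886.4, 1744.0 and 1890.3 units with AdLacZ and 1446.0, 1392.7 and 1264.7 with AdCre on probe ILMN_1244123 (-0.42 ± 0.10, limma adjusted p = 0.0341). Another Slc38a2 probe, ILMN_2955671, gave 0.00 (adjusted p = 0.995), so the probes of this gene disagree. Of the fits that left out an AdLacZ or AdCre array, Slc3a2 passed only in that without AdCre replicate 2 (limma adjusted p = 0.0481). Its adjusted p rose to 0.0935 in the others. Slc38a2 passed in none of these fits, with adjusted p up to 0.112. Leaving out an untreated array changed neither compared group. None of the 14 regulators and none of the 19 tRNA synthetases passed in AdCre against AdLacZ in limma, beside 4.6% of all genes in either direction. In lists of this size, no call lies near that share. The regulator Nupr1, a stress-induced chromatin protein, came closest from above (0.39, limma adjusted p = 0.0648) and Sesn2, a stress-induced inhibitor of mTORC1 signalling, from below (-0.41, adjusted p = 0.085).

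In AdLacZ against untreated cells, 1 of 12 one-carbon genes, 1 of 14 regulators, 1 of 16 targets and 1 of 19 synthetases were higher, and 2 targets were lower, where 2.94% of all tested genes were higher and 2.58% lower. The lists' shares called ran from 5.26% to 18.8%, beside 5.52% of all genes, and a single call in a list of this size lies near that share. The regulator was Eif2ak2, which encodes PKR, the eIF2 kinase that is activated by double-stranded RNA and induced by interferon. It read 533.2 and 700.9 units in untreated cells, 1193.6, 1368.1 and 1298.2 with AdLacZ, and 1164.6, 1265.3 and 1268.2 with AdCre. Both virus groups lay above untreated, with log2 changes of 1.04 ± 0.13 (limma adjusted p = 0.00195) and 0.98 ± 0.13 (adjusted p = 0.00147), and the difference between them was -0.06 (adjusted p = 0.816). Both calls held in all 8 fits without an array, with 0.85 without untreated replicate 1 and 1.22 without untreated replicate 2 for AdLacZ against untreated. Of the interferon response list 6 of 8 tested genes were higher in each virus group than untreated cells (all genes: 2.94% AdLacZ, 7.4% AdCre). The other higher genes were Slc6a9, a glycine transporter (0.56 ± 0.13, limma adjusted p = 0.0325), Aars, the alanyl-tRNA synthetase (0.39 ± 0.10, adjusted p = 0.0453), and Fgf21, a secreted hormone, at least 1.26-fold higher because its untreated arrays did not pass the floor (adjusted p = 0.0389). The lower genes were Gadd45a, a growth arrest gene (-0.79 ± 0.16, limma adjusted p = 0.0177, but -0.36 and 0.151 on its dimmer probe), and Gclm, a subunit of the enzyme that starts glutathione synthesis (-0.58 ± 0.13, adjusted p = 0.0335). Of the 8 fits without an array, Aars passed in 0, Fgf21 in 2, Gclm in 3, Slc6a9 in 4 and Gadd45a in 5. The fits without an AdCre array left both compared groups whole, so they do not show dependence on a compared array.

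In AdCre against untreated cells, where Slc7a11, Atf4 and Phgdh were lower, the lists moved both ways: 1 one-carbon gene, 2 regulators, 2 targets and 1 synthetase were higher, and 1 one-carbon gene and 1 target were lower. Nupr1 read 453.9 and 390.2 units in untreated cells, 596.6, 590.9 and 586.9 with AdLacZ, and 709.5, 771.7 and 880.5 with AdCre, an order of groups opposite to that of Atf4 (log2 change against untreated 0.85 ± 0.12, limma adjusted p = 0.00184). Herpud1, a membrane protein of the endoplasmic reticulum stress response, was higher as well (0.60 ± 0.11, limma adjusted p = 0.00675), as was Slc6a9 (0.78 ± 0.13, adjusted p = 0.00356). Slc3a2 (0.64, limma adjusted p = 0.035) and Farsb, a subunit of phenylalanyl-tRNA synthetase (0.40, adjusted p = 0.025, but 0.37 and 0.0512 on its dimmer probe), completed the higher genes with Eif2ak2. Gadd45a was lower (-1.13, limma adjusted p = 0.0017) and so was Gldc (-0.43, adjusted p = 0.031). Slc3a2 passed in 5 and Farsb and Gldc in 4 each of the 8 fits without an array. Nupr1, Herpud1, Slc6a9, Eif2ak2 and Gadd45a passed in all 8. Here the fits without an AdLacZ array left both compared groups whole. The list medians stayed between -0.07 and 0.05 except for the tRNA synthetases, at 0.08. The shares called in the 4 lists ran from 5.26% to 18.8%, beside 13.5% of all genes.

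**Figure D3:**
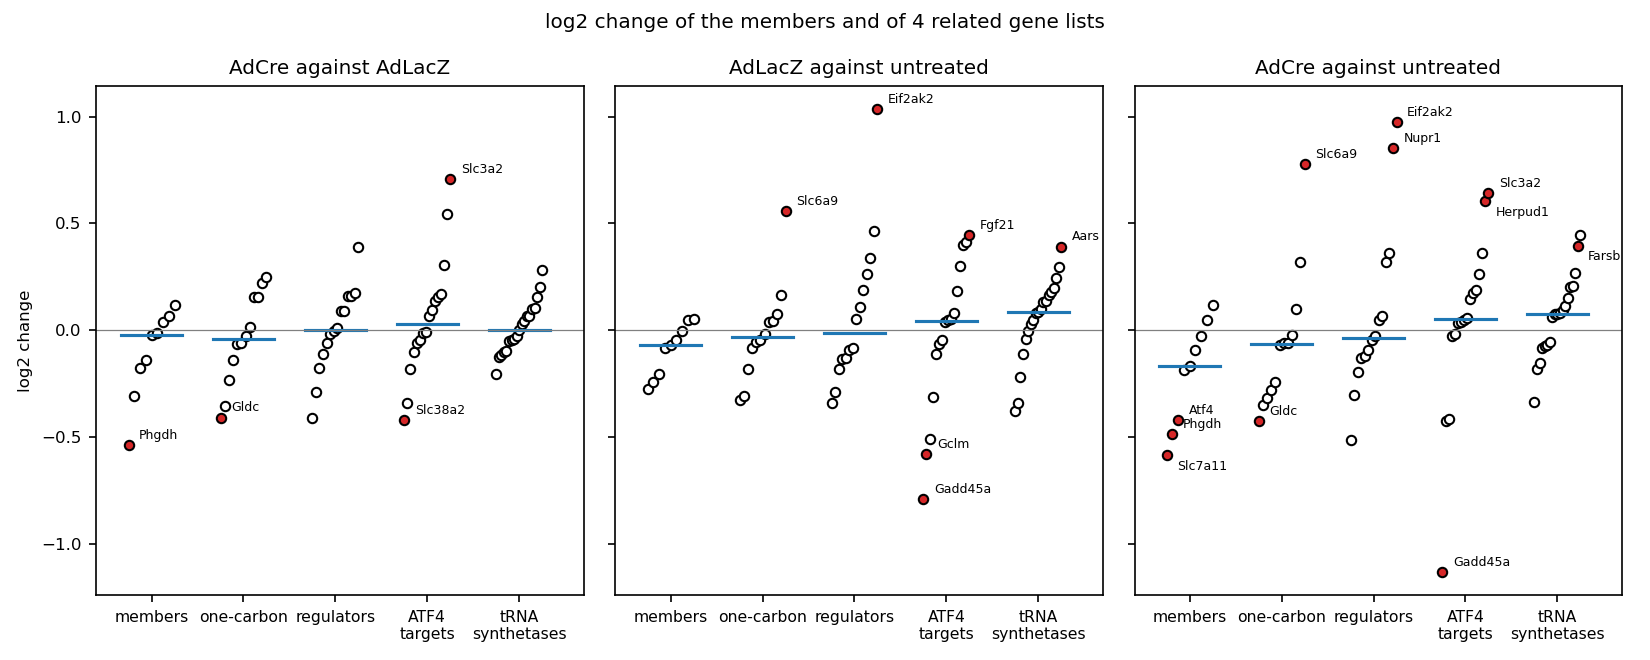
Log2 change of the brightest tested probe of each gene (points) and the list median (bars) for the 9 tested members and the 4 related lists, with one panel per comparison; filled, named points have a limma adjusted p under 0.05. Phgdh is the filled member in AdCre against AdLacZ, Eif2ak2 lies highest in both comparisons with untreated cells, and the list medians lie near 0.

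The arrays also show which other transcripts ran most like the members. Over the 8 arrays the log2 signal of Phgdh correlated most with Rxrb (Pearson r = 0.99), Hnrnph1 (0.99) and Cdh11 (0.98), each with the highest reading on AdLacZ replicate 2, as for Phgdh. Atf4 ran most like Rrm2, a subunit of ribonucleotide reductase (r = 0.995), Cep97 (0.99) and Rab6a (0.98), and Slc7a11 most like Acin1, Scoc and Tmem223 (each 0.98). The brighter Shmt2 probe, which itself passed no test, ran most like Bcorl1 (0.97), Gtf3c2 (0.95) and Zfp317 (0.95). Bcorl1 was above the floor on only 2 of the 8 arrays, so its likeness is to near-background signal. Rrm2 read 1285.0 and 1130.4 units in untreated cells, 870.6, 860.8 and 919.2 with AdLacZ, and 695.8, 701.6 and 686.9 with AdCre. These are the highest of many correlations over only 8 arrays in 3 groups; they share the same arrays and group differences.

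**Figure D4:**
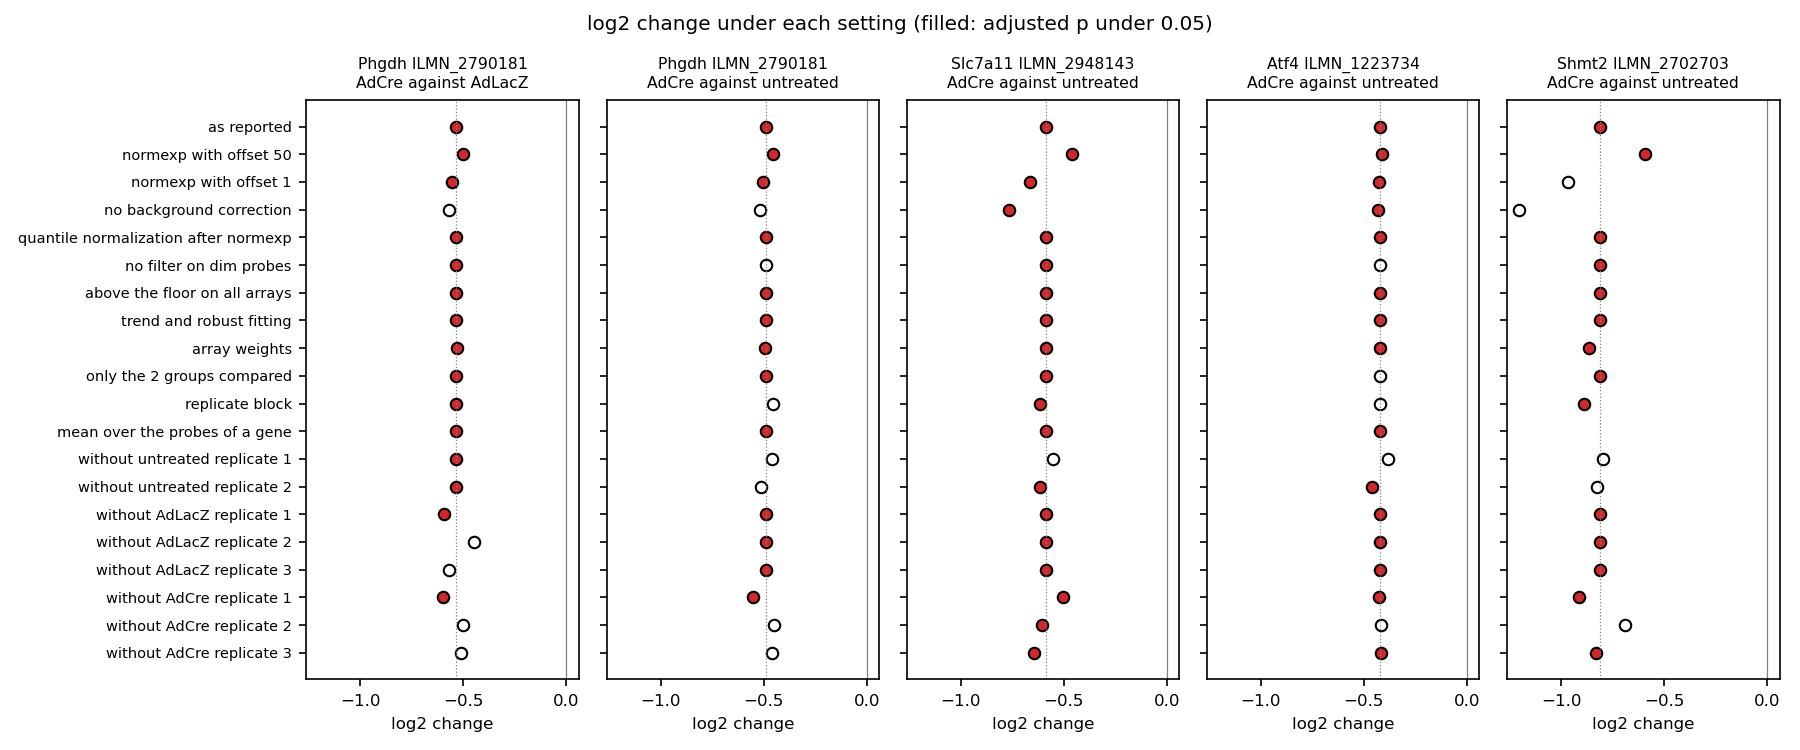
Log2 change (x axis) of the member probes with an adjusted p under 0.05 in a comparison, under the reported setting and each of up to 19 alternatives (y axis); filled points keep an adjusted p under 0.05. Every point lies below 0, Slc7a11 stays filled in 18 of 19 alternatives, and Phgdh against AdLacZ in 14 of 19. In AdCre against AdLacZ, leaving out either untreated array repeats the fit of only the 2 groups compared, so the 19 are not separate tests.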

How the data were processed

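Biotin-labelled RNA from the 8 samples had been read as Illumina bead array intensities. The authors deposited background-subtracted intensity values on a linear scale, and 25.7% of them lay below 0. BeadStudio 2.1 is among the tools in the submitters' processing notes, and the normalization method is not given in the sources used here. A table of 32 per-sample columns named by chip position matched no label and was not used. The members and gene lists were chosen with earlier results of these data known.

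The intensities were corrected with normexp (offset 16) and put on the log2 scale in limma 3.58.1 (R 4.3.3), with no further normalization. The offset shrinks changes of dim probes. The floor was the one-sided 95% normal quantile times the SD of each array's negative values mirrored around 0, and 15944 probes passed it on at least 2 arrays. A linear model over the 3 groups gave moderated tests (5 residual degrees of freedom), with Benjamini-Hochberg adjustment over all tested probes and a threshold of 0.05. The script was tested on simulated data. No array values were near-duplicates: the most alike pair shared 0.132% of values.

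Symbols came from the platform annotation, with 23978 probes carrying 1 symbol and 23962 matched to the RefSeq gene table. A gene was counted by its brightest tested probe. Besides all members, genes of the 4 lists past the threshold (at most 6 per list and comparison, by smallest p), the 3 probes most like the brightest probe of each member with any called probe (Shmt2 by its dimmer one), Sox4 and Tead2 were to be named. Shmt1, Mthfd2, Sesn2, Nupr1 against AdLacZ, Usp18, Ptprc, Alas2, Cdh5, Pax3, Krt5, Egfl7, Tek and Myog were named after their values were seen. The labels do not say whether replicate numbers pair arrays. Deviations of same-numbered AdLacZ and AdCre arrays correlated at 0.02, 0.00 and -0.06. Those of same-numbered untreated arrays correlated at 0.00 and -0.03 with AdLacZ and at -0.14 and 0.02 with AdCre. So few arrays cannot tell whether same-numbered arrays shared a culture or litter. Precision is limited by 2 or 3 arrays per group.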

Additional observations from a re-analysis of the deposited data

How the results depend on the processing

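The 19 alternatives changed the background correction, normalization, filter, spread estimate, array weights, groups in the fit, replicate block or probe averaging, or left out 1 array. Where an arm kept 1 array, it was assumed to vary like the others. Leaving out an array of the group not compared kept both compared groups whole. For AdCre against AdLacZ, leaving out either untreated array gave the same fit as only the 2 groups compared. Of 802 probes called in AdCre against AdLacZ, the count was 1420 with offset 50, 505 with offset 1, 243 without background correction, 406 without the filter, 1432 with trend and robust fitting and 498 with the replicate block; leaving out an array gave 192 to 774. For AdLacZ against untreated (834) the same settings gave 1440, 524, 262, 486, 1500 and 442, and leaving out an array 168 to 849. For AdCre against untreated (2183) the count was 1327 without background correction, and 712 to 2008 without an array. Lowest were AdLacZ replicate 2 left out in the comparison of viruses and untreated replicate 1 in the others.

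The 1 member gene called against AdLacZ, Phgdh, was lost without background correction (0 genes, limma adjusted p = 0.0711), and leaving out an array gave 0 to 1. The replicate block kept it (adjusted p = 0.0491). No member gene was called in AdLacZ against untreated under any setting. The 3 member genes lower against untreated became 1 (Slc7a11) without the filter and 1 with the replicate block (Slc7a11), where Atf4 had an adjusted p of 0.0582 and Phgdh of 0.0801; leaving out an array gave 0 (without untreated replicate 1) to 3. Probe averaging added Shmt2 (-0.45, adjusted p = 0.0429).

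Over single members and list genes, 888 values kept their direction and their side of the threshold, 128 no longer passed it, 6 newly passed and 26 changed sign. Sign changes occurred only where a member had passed no test in that comparison. With the mean over probes Ddit3 gave 0.015 against AdLacZ, 0.15 for AdLacZ and 0.16 for AdCre against untreated, and Asns -0.0636 for AdCre against untreated. With the replicate block Ddit3 ILMN_2652909 gave 0.0276 for AdLacZ and 0.0032 for AdCre against untreated, and Trib3 0.0404 for AdLacZ. Leaving out an array moved, in AdCre against AdLacZ, Shmt2 ILMN_1224942 from -0.0328 to 0.0133, Asns ILMN_2636755 from -0.17 to 0.04, Ddit3 ILMN_2652909 from -0.0956 to 0.0356, Ddit3 ILMN_2927373 from -0.0325 to 0.126 and Chac1 from -0.0144 to 0.182. In AdLacZ against untreated it moved Phgdh from -0.0399 to 0.108, Shmt2 ILMN_2702703 from -0.287 to 0.0732, Asns ILMN_2636755 from -0.513 to 0.0658, Ddit3 ILMN_2652909 from -0.12 to 0.11 and Trib3 from -0.24 to 0.14. In AdCre against untreated it moved Asns ILMN_2643513 from 0.00 to 0.0987, Ddit3 ILMN_2652909 from -0.142 to 0.0867 and Trib3 from -0.377 to 0.0033. The causes were not tested.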
